A study of Mus musculus with 2 samples.

Results

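The genes described here copy the genome and make its building blocks: a fixed list of 32 mouse genes for DNA replication, nucleotide synthesis and the chromatin work that goes with them, taken by symbol from the 31053 features of the count tables. Each of the 32 symbols matched 1 feature, and all 32 had at least 1 UMI (unique molecular identifier, a tag that counts an original RNA molecule once) in the cells kept. The series holds 2 droplet-based single-cell RNA libraries of CD11b+ F4/80+ cells sorted from retinas of C57BL/6j mouse pups at postnatal day 17. The RA library came from control pups kept in room air, and the OIR library from pups put through oxygen-induced retinopathy, a model in which a period of high oxygen is followed by abnormal growth of retinal vessels. Each library pools animals and is the only one of its group, so the condition and the library cannot be told apart, and no test over samples was possible. All intervals below are exact 95% intervals that cover counting error only, since cells of 1 library are not replicates.

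The RA library held 1449 cells and 12810892 UMIs, and the OIR library 1259 cells and 9835402 UMIs, with 0 cell barcodes in common. After filtering, 1295 RA and 1179 OIR cells were kept, with median depths of 9064 and 5427 UMIs. Cells were grouped by clustering that left these genes out, and clusters were called microglia-like, macrophage-like or monocyte-like from marker genes. A cell was called dividing when at least 3 of 6 genes outside the list, Top2a, Mki67, Birc5, Ube2c, Ccnb1 and Cdk1, had a UMI. Cells that fell short are called other cells, or cells outside division, which means outside this rule only. By that rule 99 of 684 microglia-like cells were dividing in OIR (14.5%, 11.9 to 17.3) and 5 of 827 in RA (0.605%, 0.197 to 1.41). Among macrophage-like cells they were 27 of 145 in OIR and 5 of 87 in RA, and among monocyte-like cells 6 of 91 and 1 of 53. Since the rule needs UMIs in several genes, depth bears on it: with every cell thinned to 3000 UMIs and shallower cells left out (179 OIR and 53 RA microglia-like cells), the microglia-like shares were 10.1% in OIR and 0.258% in RA. All 12 microglial markers were detected in the dividing microglia-like cells of both libraries, at 14832 CPM (UMIs per 1000000 UMIs of the group) in OIR and 15696 in RA, beside 177 and 142 CPM of the 12 monocyte markers. Of these dividing cells, 42 in OIR and 3 in RA lay in 1 shallow cluster. Malat1, a nuclear RNA, was at 1288 and 242 CPM in them, against 4923 and 12498 in dividing cells of a deep microglia-like cluster. In some alternative settings given below, a microglia-like cluster led by lens crystallin genes lost its name. The macrophage-like and monocyte-like names were also less clear from the markers. Dividing macrophage-like cells had 6100 CPM of macrophage and 5995 of microglial markers in OIR, and 8782 and 7233 in RA. The 6 dividing OIR monocyte-like cells had more of the microglial markers, 7391 CPM, than of the monocyte markers, 2284. The 1 dividing RA monocyte-like cell had 49376 CPM of 8 neutrophil markers and 14458 of the monocyte markers. The 85 other OIR monocyte-like cells also had more of the microglial markers, 6029 CPM, than of the monocyte markers, 4886. The name is therefore uncertain for these 7 dividing cells and for the other OIR monocyte-like cells. Rod photoreceptors that came through the sort, 308 in RA and 234 in OIR, served as a rough background for free RNA. Their counts also hold RNA of their own, and 0 of them were dividing.

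Before a cell divides, the Mcm2 to Mcm7 helicase ring is loaded on origins by Cdc6 and Cdt1, and Cdc45 and the GINS complex switch it on when DNA synthesis begins. The Pcna clamp, placed by replication factor C, holds polymerases and the enzymes that finish each strand, while ribonucleotide reductase, thymidylate synthase, thymidine kinase and dUTPase supply deoxynucleotides. Many of these genes are known targets of E2F factors, which cyclin E and its kinase help to release, whereas genes for late mitosis are known for CHR and CCAAT promoter elements.

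The promoters of these genes were searched for the letters of those elements, and the stretches below show E2F-type motifs that lie before the start. RefSeq promoter windows on build GRCm38.p6 (250 bases before and 50 after each start) were found for 26 of the 32 genes. Windows on 1 chromosome were left out before the search, so all genes here means genes with a window elsewhere. The E2F-type motifs TTTCGCGC and TTTGGCGC, searched on both strands and able to overlap each other, occurred in windows of 8 of these 26 genes (30.8%), against 0.929% of all genes with a window and 0 of 13 late-mitosis genes. The CHR motif TTTGAA was in 3 of the 26 genes (11.5%) and in 10 of the 13 late-mitosis genes (76.9%), against 20.2% of all genes. CCAAT was in 15 of the 26 (57.7%), in 13 of the 13 and in 41.1% of all genes. Promoters of helicase, polymerase and chromatin genes with a match before the start are shown for the 200 bases before it. E2F-type motifs are in capitals, which for Mcm5 and Mcm6 include an overlapping pair. In Mcm3, Mcm7, Cdt1 and Lig1 the match lay after the start, so they are not shown. Mcm7, Lig1 and Uhrf1 had more than 1 window, and 1 window of each held a match. Mcm5 lies at chr8:75109309-75109508 on the plus strand, Mcm6 at chr1:128359706-128359905 on the minus strand, Pola1 at chrX:93632156-93632355 on the minus strand and Uhrf1 at chr17:56304113-56304312 on the plus strand.
Mcm5: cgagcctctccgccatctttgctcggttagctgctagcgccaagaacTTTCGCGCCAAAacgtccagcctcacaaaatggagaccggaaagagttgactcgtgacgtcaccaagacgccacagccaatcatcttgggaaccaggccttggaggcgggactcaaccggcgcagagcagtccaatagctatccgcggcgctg
Mcm6: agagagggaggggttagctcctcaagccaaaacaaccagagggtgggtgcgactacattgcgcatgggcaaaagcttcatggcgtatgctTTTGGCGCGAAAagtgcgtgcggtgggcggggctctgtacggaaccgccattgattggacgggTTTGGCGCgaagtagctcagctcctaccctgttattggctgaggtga
Pola1: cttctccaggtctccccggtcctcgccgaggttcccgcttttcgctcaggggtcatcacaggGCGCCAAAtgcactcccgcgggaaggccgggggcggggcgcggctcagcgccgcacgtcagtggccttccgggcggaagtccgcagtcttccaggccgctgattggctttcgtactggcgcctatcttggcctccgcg
Uhrf1: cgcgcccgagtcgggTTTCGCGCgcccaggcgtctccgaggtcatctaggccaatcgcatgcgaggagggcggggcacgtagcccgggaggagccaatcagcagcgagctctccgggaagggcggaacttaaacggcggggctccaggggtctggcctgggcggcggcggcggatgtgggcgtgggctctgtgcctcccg
Pclaf at chr9:65890173-65890322 and Rrm2 at chr12:24708104-24708253, both on the plus strand, are shown for the 150 bases before the start because they later stand out among dividing cells. Neither window held an E2F-type motif as spelled here, and the capitals mark CCAAT. Tk1, which stands out in the same way, had no match to any motif searched and is not shown.
Pclaf: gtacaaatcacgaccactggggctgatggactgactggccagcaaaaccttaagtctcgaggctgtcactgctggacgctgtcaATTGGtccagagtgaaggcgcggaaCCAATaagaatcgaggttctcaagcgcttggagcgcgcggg
Rrm2: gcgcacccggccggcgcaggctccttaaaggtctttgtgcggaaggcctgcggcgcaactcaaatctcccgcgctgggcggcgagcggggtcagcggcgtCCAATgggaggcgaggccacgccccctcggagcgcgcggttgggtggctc
A match is a run of letters, not a measured binding site.

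The 32 genes together were several times higher in dividing than in other cells of the microglia-like and macrophage-like classes. In OIR microglia-like cells their summed level was 3956 CPM in dividing cells and 689 in the others, a log2 ratio of 2.52 (2.45 to 2.59). In RA it was 4004 in 5 dividing cells and 369 in 822 others, a log2 ratio of 3.44 (3.24 to 3.64). Of the 226 UMIs of these genes in the 5 cells, 219 came from 2 of them, and the other 3 were at 846 CPM. In OIR macrophage-like cells it was 3099 and 738, and the 6 dividing OIR monocyte-like cells, whose microglial markers exceeded their monocyte markers, had 767, against 462 in the others. Rods had 442 in OIR and 347 in RA, the latter near the 369 of other RA microglia-like cells, but different genes made up the sums. In RA, Dut was at 89.0 CPM in rods and 2.59 in other microglia-like cells, and Mcm3 at 2.67 and 38.9. The likeness of the sums therefore does not place those cells at the level of free RNA. Dividing cells made up 14.3% of OIR myeloid cells and 20.9% of their UMIs, and held 57.9% of the UMIs of these genes; in RA they were 1.14% of cells and held 10.7%.

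**Figure D1:**
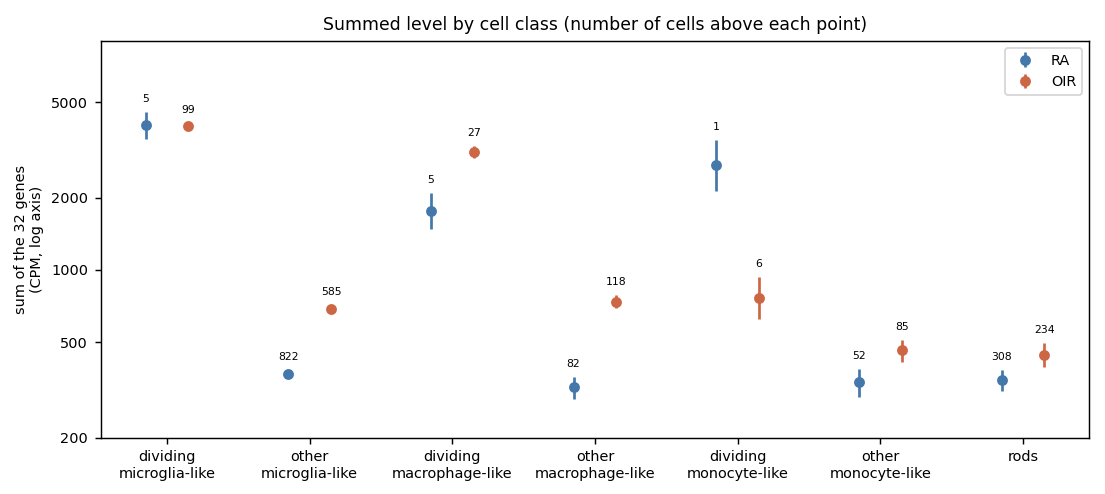
Summed level of the 32 genes (CPM, log axis) by cell class in RA and OIR, with exact 95% Poisson intervals and the number of cells above each point. Dividing microglia-like cells lie near 4000 in both libraries, in RA mostly from 2 of 5 cells, and other microglia-like cells lie at 369 in RA and 689 in OIR.

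Within OIR microglia-like cells, 31 of the 32 genes had the 20 UMIs needed for a comparison, and 31 of 31 were at a log2 ratio of 1 or more, as were 9.35% of all genes compared; 0 were at -1 or less, beside 4.45%. Their median log2 ratio was 2.60, beside 0.07 for all genes compared, and the interval of each of the 31 lay above 0. Cdc6, which loads the helicase, was the gene left out, at 12.2 CPM in dividing cells and 0.484 in the others. The 20 UMIs were counted over both groups together, here and below, so a gene could pass through 1 group alone. Rrm2, Tk1, Ccne1, Ccne2, Cdc45 and Pola1 had fewer than 20 UMIs in the other cells. They passed only through the dividing cells, where they were high. In OIR macrophage-like cells 28 of 28 genes compared were past the same fold, beside 7.03% of all genes, and 0 were lower, beside 5.56%. In RA the 5 dividing microglia-like cells gave 21 of 23, beside 18.4% of all genes, and 0 lower, beside 6.78%. Of these 5 cells, 2 held most of the UMIs of the 32 genes. The 5 dividing RA macrophage-like cells gave 6 of 6, beside 7.98%, and 0 lower, beside 12.2%.

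The helicase genes had some of the lower ratios, and they were also detected outside division. Mcm3 was at 231 CPM in dividing and 85.0 in other OIR microglia-like cells, a log2 ratio of 1.44 (1.20 to 1.68), and Mcm4 had the lowest ratio of the ring at 1.34. Cdc45, which joins the ring only when it is activated, was at 41.2 and 2.18, a log2 ratio of 4.24. The 8 helicase genes summed to 906 against 235 CPM. Of the licensing genes, Cdt1 was at a log2 ratio of 1.48 and Gmnn, the inhibitor of Cdt1, at 2.70.

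The highest ratios of single genes were those of Rrm2, Pclaf and Tk1, and the nucleotide synthesis genes as a group were above the helicase genes. Rrm2, the regulated subunit of ribonucleotide reductase, was at 213 CPM in dividing and 1.69 in other OIR microglia-like cells, a log2 ratio of 6.98 (5.91 to 8.31). Rrm1, its large subunit, was at 190 and 15.7, a log2 ratio of 3.59. Tk1, thymidine kinase, was at 205 and 4.12, and Tyms, thymidylate synthase, at 205 and 15.01. Dut, which keeps uracil out of DNA, was at 132 and 18.9, but at 113 in OIR rods. In other OIR macrophage-like and monocyte-like cells Dut was at 28.3 and 6.50. Pclaf had the highest level of the 32 in dividing cells, 387 against 6.05 CPM, a log2 ratio of 6.00, while Pcna itself was at 317 and 84.5, a log2 ratio of 1.91. The 5 nucleotide genes together were at a log2 ratio of 4.09 (3.88 to 4.31), whose interval lay above that of the helicase genes at 1.94 (1.81 to 2.07).

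**Figure D2:**
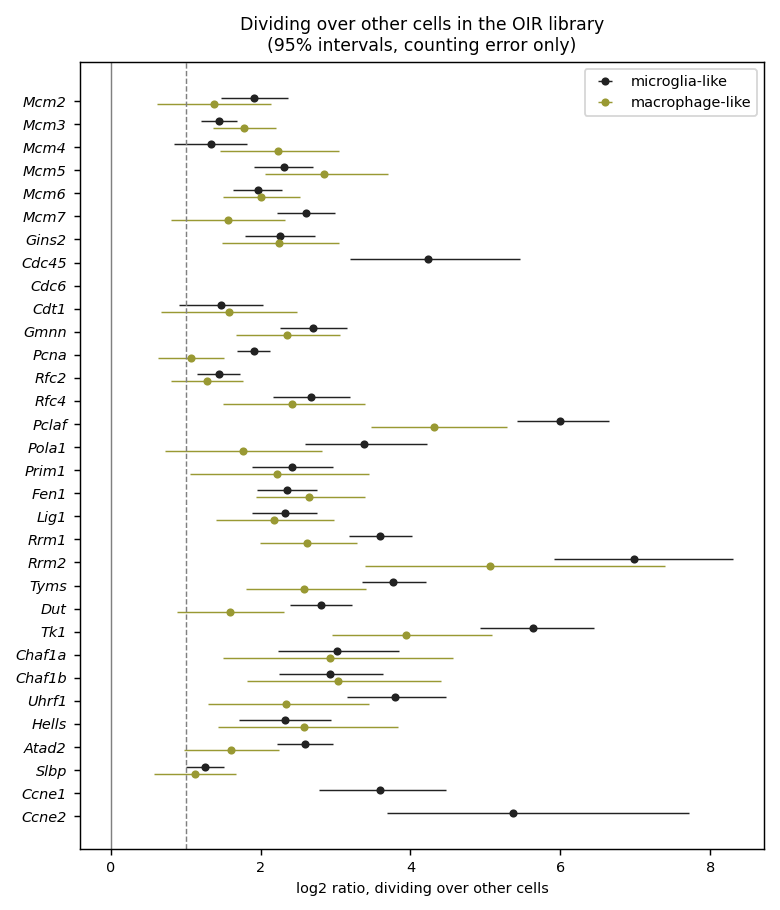
Log2 ratio of dividing over other cells in OIR, in microglia-like and macrophage-like cells, with exact 95% intervals. Each gene with at least 20 UMIs over both groups together is drawn. The dashed line is a log2 ratio of 1. Rrm2, Pclaf and Tk1 lie farthest right in both classes, and Slbp and Mcm4 are among the lowest in microglia-like cells.

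Strand-completing and chromatin genes had ratios that overlapped those of the helicase genes. Fen1, which trims the flaps of Okazaki fragments, and Lig1, which seals them, were at log2 ratios of 2.35 and 2.32, and the primase partners Pola1 and Prim1 at 3.38 and 2.42. Uhrf1, which passes on DNA methylation, was at 87.0 and 6.29 CPM, a log2 ratio of 3.79, and the histone-depositing subunits Chaf1a and Chaf1b were at 3.02 and 2.92. Slbp, which binds histone mRNA, was the least changed of the 31, at 201 and 84.0 CPM, a log2 ratio of 1.26. The cyclin E gene Ccne1 was at 49.6 CPM in dividing and 4.12 in other cells, a log2 ratio of 3.59 (2.78 to 4.47). Ccne2 was at 29.9 and 0.726, the latter from 3 UMIs, a log2 ratio of 5.37 (3.69 to 7.72). As a pair they were at 4.04 (3.32 to 4.82), an interval that overlapped that of the nucleotide genes.

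Further genes of the same pathways were drawn from lists outside the 32. Of 49 other replication genes, 43 were compared and 35 were past the fold upwards in OIR microglia-like cells, where 9.35% of all genes compared were higher by as much and 4.45% lower, led by Pole at a log2 ratio of 4.76 and Asf1b at 4.40, with Pold4 lowest at -0.74. Of 31 other nucleotide genes, 8 of 30 compared were past it upwards and 2 downwards, Tk2 at -1.20 and Impdh1 at -1.09, the downward share being near that of all genes. For E2F and Rb family genes it was 10 of 16, with E2f8 at 4.31 and Lin37 at -0.57, and for checkpoint and repair genes 9 of 16, with Brca1 at 5.34. Tk2 is the mitochondrial thymidine kinase.

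Depth differed widely among the dividing OIR microglia-like cells. The 42 dividing OIR cells of 1 shallow microglia-like cluster had a median of 2666 UMIs and 4488 CPM of these genes, and the 37 of a deep cluster had 15882 UMIs and 4153. Smaller groups of 11 and 7 deep cells had 4089 and 2197 CPM. Red-cell genes were at 1403 CPM in dividing and 74.8 in other OIR microglia-like cells, and lens genes at 286 and 570; their part in the result was not tested. Without 4 clusters whose median depth was under 3000 UMIs, 31 of 31 genes compared were past the fold, with no share of all genes given for that setting.

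Dividing microglia-like cells of OIR and RA were compared by the sum of these genes, and a difference was not detectable at this depth. Its log2 ratio of OIR over RA was -0.02 (-0.21 to 0.18), but RA had 5 cells, and 219 of their 226 UMIs of these genes came from 2 of them. Of 31 genes compared, 2 were at a log2 ratio of 1 or more, beside 12.9% of all genes, and 3 at -1 or less, beside 11.8%. Atad2, a chromatin ATPase, was the gene whose interval excluded 0, at 149 in OIR and 301 in RA, a log2 ratio of -1.02 (-1.74 to -0.20). With each cell weighted alike instead of summed, the median of the genes was 1.04 in place of 0.16 and 15 were higher in OIR. No share of all genes is given beside that count. Of the 5 RA cells, 3 lay in a shallow cluster and held 7 UMIs of these genes in all. The dividing cells of the libraries were also not alike in late-mitosis genes. Summed, these were at 2266 CPM in OIR and 3951 in RA, a log2 ratio of -0.80 with an interval below 0. The genes of the dividing rule, summed, were at 2895 CPM in OIR and 4907 in RA. The part of these differences in the comparison was not tested.

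**Figure D3:**
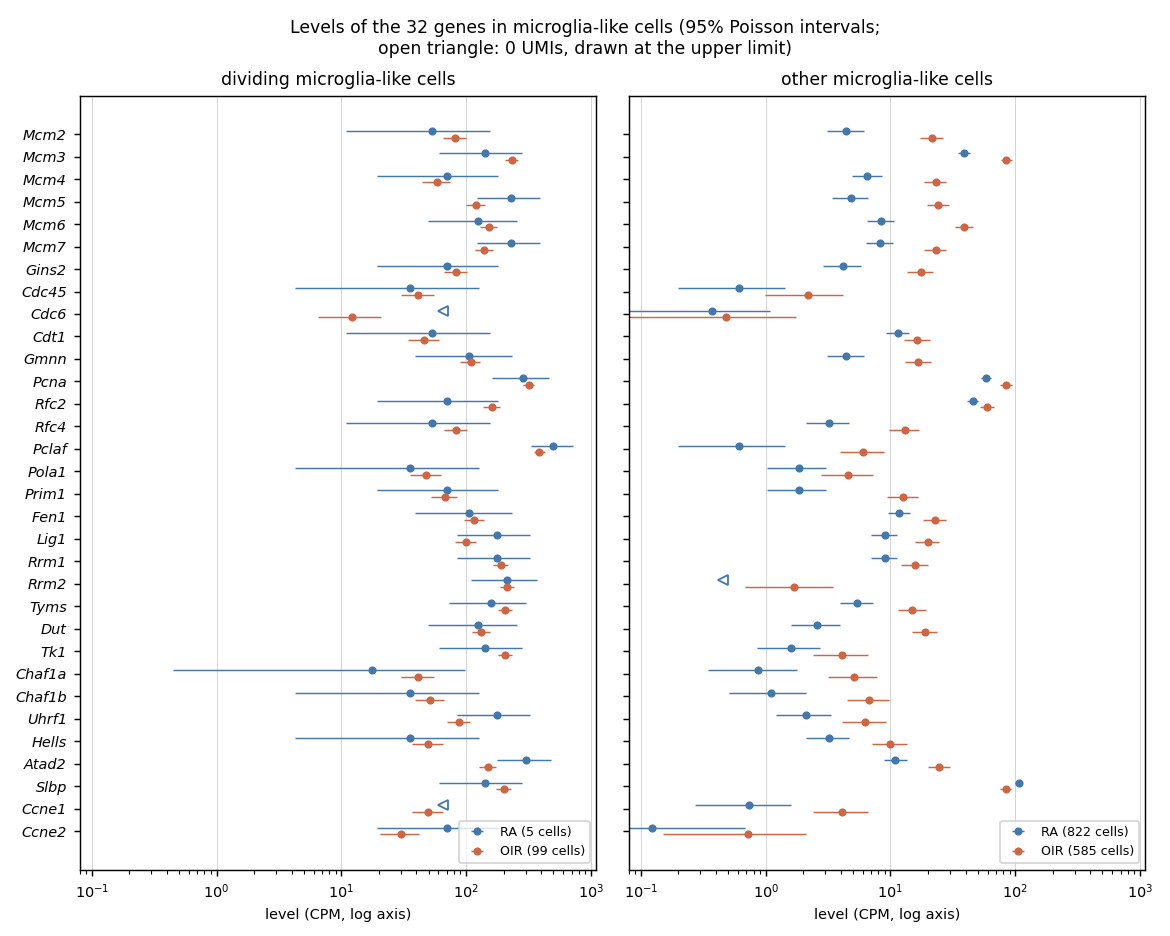
Level of each of the 32 genes (CPM, log axis) in dividing and other microglia-like cells of RA and OIR, with exact 95% Poisson intervals; an open triangle marks 0 UMIs. Intervals of the 5 dividing RA cells are wide and overlap those of OIR for most genes, while in other cells OIR lies to the right of RA for all genes but Slbp.

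Microglia-like cells outside the dividing rule also differed between the libraries, with most of these genes at a higher level in OIR. Of 28 genes compared, 22 were at a log2 ratio of 1 or more, beside 6.25% of all genes, 0 were at -1 or less, beside 7.31%, and the median was 1.61, beside -0.02 for all genes. Among the helicase genes, Mcm2 was at 21.5 in OIR and 4.43 in RA, Mcm5 at 24.2 and 4.80, and Mcm6 at 39.0 and 8.37 CPM. Dut was at 18.9 and 2.59, a log2 ratio of 2.87, and Prim1 at 12.6 and 1.85. Pcna differed less, at 84.5 and 58.0, a log2 ratio of 0.54, and Slbp went the other way, at 84.0 and 107, a log2 ratio of -0.34 (-0.53 to -0.16). The genes of the dividing rule, summed, were also higher in these OIR cells, at 43.3 CPM against 10.3 in RA. Their log2 ratio was 2.07 (1.69 to 2.46). Late-mitosis genes, summed, were at 41.4 CPM in OIR and 10.3 in RA. Malat1, a nuclear RNA, was at 6587 CPM in these OIR cells and 18409 in RA, and their median depths were 6282 and 10161 UMIs. The part of each of these differences in the result was not tested. A large part of the OIR level lay in few cells. After thinning to 3000 UMIs, the 39 of 431 OIR cells with 5 or more of the genes held 44.4% of their UMIs. Cells with fewer were at 406 CPM in OIR and 342 in RA. Shallower cells were left out, so these values cover 431 of 585 OIR and 772 of 822 RA cells. In 1 shallow cluster, before thinning, the 138 OIR cells were at 1154 CPM and the 70 RA cells at 247. A further shallow cluster was at 344 (271 to 430) in 60 OIR cells and 124 (40.2 to 289) in 8 RA cells. The latter rested on 5 UMIs. Another was at 211 (43.5 to 616) in 10 OIR cells, from 3 UMIs, and 201 (113 to 332) in 25 RA cells.

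Macrophage-like and monocyte-like cells outside division gave smaller numbers. In macrophage-like cells 12 of 19 genes compared were past the fold upwards, beside 8.45% of all genes, and 0 downwards, beside 5.82%, with a median log2 ratio of 1.29. Part of that level lay in 39 OIR cells of a shallow cluster at 2056 CPM, against 622 in the 79 cells of the deep one. Without shallow clusters the median was 1.02. After thinning to 3000 UMIs, the 15 of 91 OIR macrophage-like cells with 5 or more of the genes held 46.3% of their UMIs. They were 16.5% of those cells (9.53 to 25.7), against 1 of 72 in RA. In monocyte-like cells 2 of 7 genes compared were past the fold, beside 7.68%, and 0 downwards, beside 6.74%, with Mcm3 at 49.4 in OIR and 15.8 in RA. Microglial markers were at 6029 CPM in these OIR monocyte-like cells and 3996 in RA, and monocyte markers at 4886 and 7575; their part in the result was not tested.

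A large part of the UMIs of these genes in OIR cells outside division sat in few cells. With every cell thinned to 3000 UMIs, 39 of 431 OIR microglia-like cells outside the dividing rule had a UMI in 5 or more of the 32 genes (9.05%, 6.51 to 12.2), against 7 of 772 in RA (0.907%, 0.365 to 1.86). In rods it was 0 of 59 in OIR, which allows up to 5.08% when 3 cells are taken as the limit of a count of 0, and 0 of 95 in RA, which allows up to 3.16% in the same way; the exact 95% upper bounds were 6.06% and 3.81%. These 39 cells held 44.4% of the UMIs of the genes, and the other 392 OIR cells had 406 CPM, against 342 in the 765 RA cells with fewer than 5. Cells under 3000 UMIs before thinning were left out of these numbers. The 39 cells were picked by the genes described, so these levels are a description. Among the 349 OIR cells with none of the 6 division genes before thinning, 25 had 5 or more of the 32 (7.16%, 4.69 to 10.4), and among 704 RA cells 3 did.

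**Figure D4:**
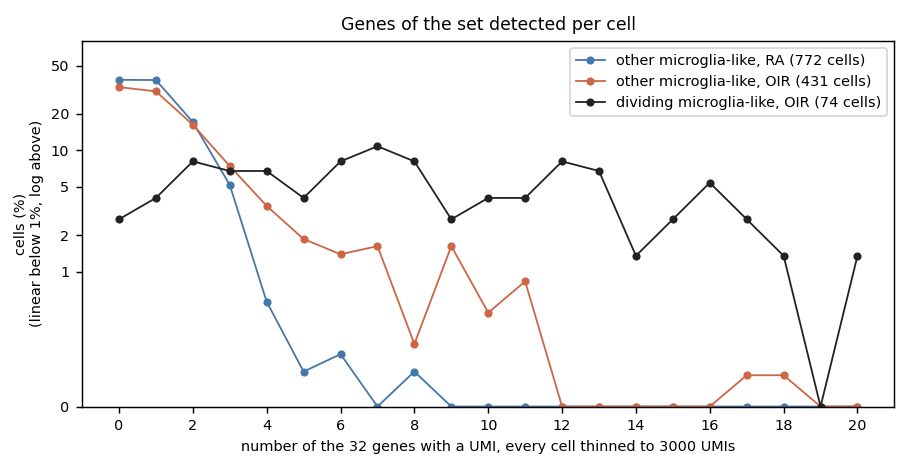
Share of microglia-like cells (%, linear below 1 and log above) by how many of the 32 genes had a UMI after thinning to 3000 UMIs, for other cells of RA and OIR and dividing cells of OIR. RA stops at 8 genes, while other OIR cells reach 18.

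The level of the 32 was highest in cells with an intermediate number of division genes detected. After thinning, OIR microglia-like cells with 0 of the 6 genes had 634 CPM, those with 1 had 1958, with 2 had 4000 and with 3 had 6590 (5809 to 7447). The level was then lower, at 3333 with 4, 3050 with 5 and 1667 with 6 (1216 to 2230), over 9 to 20 cells each. These are sums over cells that varied widely. The median number of the 32 genes detected per cell was 1 with 0 and also with 1 of the 6 genes. It was 8 with 2 and 13 with 3. The 40 cells with 1 ranged from 0 to 17, and the 13 cells with 2 from 0 to 20.

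The genes also separated among dividing cells when these were ordered by 16 late-mitosis genes. The 132 dividing OIR cells were split at the median of that level, 66 above and 66 at or below. The upper group held 52 microglia-like, 13 macrophage-like and 1 monocyte-like cells, and the lower group 47, 14 and 5; the part of this makeup in the result was not tested. Of the 32 genes, 11 were lower in the upper group by a log2 ratio of 1 or more, beside 4.55% of all genes, and 0 were higher by as much, beside 5.08%. Hells, a chromatin remodeller, differed most at -3.13 (-4.80 to -1.84). Next were Cdc6 at -2.67, Mcm4 at -1.85, Mcm2 at -1.39, Mcm3 at -1.38 and Uhrf1 at -1.38. Cdc6 had few UMIs, near the limit of 20 over both groups, and most of them lay in the lower group. The intervals of 17 of the 32 genes lay below 0, with no share of all genes given for intervals. Genes with intervals above 0, in the other direction, were Pclaf at 0.68 (0.43 to 0.94), Tk1 at 0.56 and Rrm2 at 0.45. The helicase genes as a sum were at 524 in the upper and 1050 in the lower group, while the nucleotide genes were at 846 and 742. Median depth was 7021 UMIs in the upper and 15519 in the lower group, and 16 cells lay within 20% of the split. Without the 4 shallow clusters 6 genes were lower by that much, with no share of all genes given for that setting. In RA, with 11 dividing cells, 7 genes could be compared, of which 3 were higher, beside 17.6% of all genes, and 1 lower, beside 11.6%. Their median was 0.48, and it ranged from -1.26 to 1.17 over other settings. The -1.26 was that of 1 gene, Pclaf, with 3 cells in each group.

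**Figure D5:**
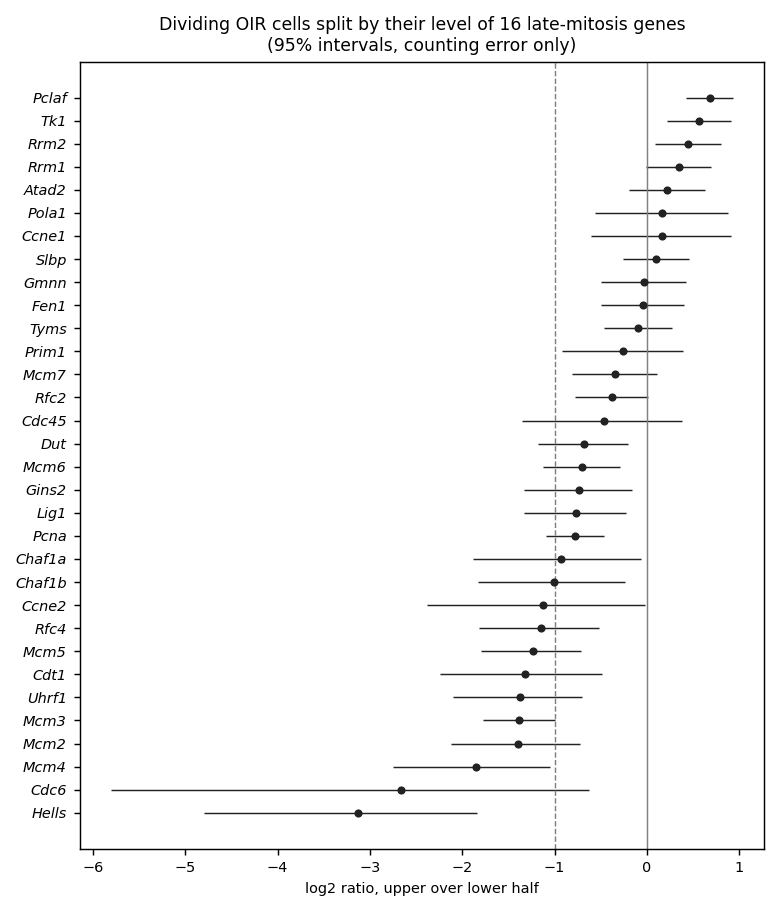
Log2 ratio of the upper over the lower group of dividing OIR cells, split by the level of 16 late-mitosis genes, with exact 95% intervals; the dashed line is -1. Hells and Cdc6 lie lowest, Cdc6 from few UMIs, and Pclaf, Tk1 and Rrm2 lie above 0.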

How the data were processed

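Pooled libraries, RA and OIR, were analysed. The deposited values are unnormalized UMI counts. The submitters' notes name Cell Ranger, without a version, mm10 and Seurat 4.0, and the matrix header gives software version 3.1.0. Cells above 20% mitochondrial UMIs and the top 2% by number of genes were removed, as in the study's methods, leaving 2474 cells; without the second filter 148 OIR and 13 RA cells were dividing, against 132 and 11. Libraries were integrated in Seurat 5.3.0 (R 4.3.3; 3000 anchor genes less cycle genes and the list, 30 dimensions), and Ptprc-positive clusters were clustered again at resolution 0.5. Names came from markers, by a scoring rule set after the data were seen. Doublets were called by Scrublet in scanpy 1.11.5 (4 in RA, 2 in OIR, 0.02 expected) and kept; so few calls may mean that the caller did not work.

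UMIs were summed per class and library, and given as CPM (per 1000000 UMIs of the group) with exact Poisson intervals, exact conditional intervals for ratios and exact binomial intervals for shares (scipy 1.17.1). A gene needed 20 UMIs over both groups. A group at 0 UMIs was set to a floor of 3; a gene whose floored ratio pointed towards the group at 0 was then not called, a correction made after the data were seen, without which 4727 instead of 1819 of 9902 genes would have passed upwards in the RA dividing comparison. The ratio code was tested on simulated data. The genes, lists and comparisons were chosen with earlier results of these data known, and the named-gene rule took all 32, plus the 4 highest and 2 lowest ratios of each further list, of which some are printed.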

Additional observations from a re-analysis of the deposited data

Results flagged for a closer look

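The ratio of Atad2 in OIR over RA pointed in opposite directions by cell class, and the difference between classes was not tested. Its log2 ratio was 1.17 in other microglia-like cells and 1.27 in other macrophage-like cells, but -1.02 in dividing microglia-like cells, where RA had 5 cells. Of the 226 UMIs of the 32 genes in those RA cells, 219 came from 2 cells. Atad2 was the 1 gene of 31 compared there whose interval excluded 0.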

How the results depend on the processing

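No paired analysis was possible because the labels give no replicate numbers and each group is 1 library; for the same reason no replicate could be left out. In OIR microglia-like cells, dividing over other cells gave 31 or 32 genes past the fold under all 13 alternatives (median log2 ratio 2.34 to 2.72), and OIR over RA in other microglia-like cells gave 19 to 26 (median 1.35 to 2.16) under 12. Where values moved, the cause was not tested. Counts of genes under these alternatives are given without the share of all genes, so they describe the list only. With 2 or more of the 6 division genes, dividing shares in OIR were 17.5% of microglia-like, 28.3% of macrophage-like and 18.6% of all myeloid cells; RA macrophage-like dividing over other cells gave a median of 1.01 with 3 genes past the fold; OIR over RA gave 5 genes higher and 0 lower in dividing microglia-like and 1 higher in monocyte-like cells; the split by late mitosis gave 2 genes higher in OIR, and in RA a median of 1.17 with 5 higher and 0 lower. With 4 or more, the OIR shares were 11.1% of microglia-like and 10.98% of myeloid cells, and the RA macrophage-like share was 0%. The RA split then had 3 cells in each group and 0 genes higher, and the 1 gene compared, Pclaf, was at -1.26. Atad2, with too few UMIs to be compared, was at -1.59. Without the gene-number filter, macrophage-like dividing over other cells had medians of 0.95 in RA and 1.66 in OIR, the RA split 1.17 with 6 higher, OIR over RA 5 higher and 1 lower in dividing microglia-like and 1 higher in monocyte-like cells, and 0% of RA macrophage-like cells outside the rule had 5 genes. A mitochondrial limit of 10% gave an OIR microglia-like share of 10.9% and 5 genes lower in dividing microglia-like cells, where RA had 2 cells. In that setting, without integration and with all anchors, a cluster led by lens crystallin genes lost its microglia-like name. At the 10% limit 57 of 522 OIR microglia-like cells were dividing, in place of 99 of 684. The part of the lost name in this change was not tested. At 2000 UMIs or more, the RA split had a median of 1.15 with 0 lower, and OIR over RA in dividing cells 0 lower; leaving out doublets gave 1 lower. With all anchor genes the OIR shares were 19.3% of microglia-like and 11.7% of macrophage-like cells, the RA monocyte-like share was 0%, RA macrophage-like cells had 3 genes past the fold, and OIR over RA gave 0 lower in dividing and 1 higher in monocyte-like cells. Totals without ribosomal protein and mitochondrial genes gave the RA split a median of -1.12 with 0 higher, 5 lower and Atad2 at -0.24. The mean over cells gave medians of 3.36 for RA microglia-like, 2.45 for RA and 1.61 for OIR macrophage-like dividing over other cells, 1.07 for the RA split, 1.96 for OIR over RA in macrophage-like cells, and 1.04 with 15 higher and 0 lower in dividing microglia-like cells. Centring gave 1 higher and 5 lower there. Thinning to 3000 UMIs gave dividing shares of 10.1% and 6.25% in OIR microglia-like and macrophage-like cells, 1.32% in RA macrophage-like cells, and 8.70% and 0.445% of OIR and RA myeloid cells. For cells outside the rule, a minimum of 3 genes gave 19.95%, 42.9% and 15.4% of OIR microglia-like, macrophage-like and monocyte-like cells and 6.87% of RA microglia-like cells; thinning to 2000 gave 6.25%, 5.94% and 0% in OIR, and leaving out cells with 2 of the 6 genes gave 0% of OIR monocyte-like cells. Without the 4 shallow clusters, an alternative chosen after seeing the data, the OIR split had 6 genes lower and the RA split a median of 1.09 with 0 lower. OIR over RA in dividing microglia-like cells then had 5 lower, where RA had 2 cells.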
